A study of Mus musculus with 6 samples.

Results

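Mcpt8 cells of the arthritic mouse knee were the cells in which at least 2 UMIs (unique molecular identifiers, one per captured transcript) of Mcpt8 were counted, with no UMI of Mcpt4 or Tpsb2 and with Elane, Mpo and Prtn3 together below 0.5% of the UMIs of the cell. Mcpt8 encodes a serine protease of basophil granules, Mcpt4 and Tpsb2 encode proteases of connective tissue mast cells, and Elane, Mpo and Prtn3 encode the first granule proteins of neutrophil and monocyte precursors. The rule selected 78 of 32953 cells. These cells were chosen by measured UMI counts, so their levels are given as descriptions and no test was made on them. The population was labelled basophils, and that name held for part of the cells at most. Of the 78 cells, 36 had at least 2 of Cd200r3, Il6 and Cyp11a1 with at most 1 UMI of the precursor proteases. A further 41 had 3 or more UMIs of those proteases, 37 of them with at least 2 of the progenitor genes Cd34, Meis1 and Angpt1. These genes were chosen with earlier results of these data known. Cd200r3 and Cyp11a1 also do not set basophils apart from mast cells. Cells with at least 2 UMIs of Mcpt4 and Tpsb2 together held 51.0% and 63.0% of their UMIs in the table.

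The cells were CD45+ leukocytes sorted from the synovium of C57BL/6 mice, bought at 8 weeks of age and housed for at least 2 weeks, with antigen-induced arthritis. All mice were immunized with 10 μg methylated bovine serum albumin (mBSA) in complete Freund's adjuvant and were challenged on day 21 with 100 μg mBSA in the knee. From that day 2 samples received PBS vehicle and 4 received 300 μg PEPITEM, a peptide that limits leukocyte trafficking, and joints were taken 3 days after challenge. The table joins 6 barcode libraries, numbered 1 to 6, and nothing in the sources used here ties a number to PBS or PEPITEM. Treatment groups were therefore not compared, and each value is given over the pooled cells or by library.

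Basophils are rare granulocytes that leave the bone marrow mature and circulate briefly. They carry the high-affinity IgE receptor, store histamine and answer IgE, IL-3, IL-18 and IL-33 with a fast release of IL-4, IL-13 and chemokines. Their development runs from Cd34+ granulocyte progenitors under GATA2 and C/EBPα, and for part of that path they share genes with mast cell progenitors, which mature in tissue and keep the receptor KIT.

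The table held 486548899 UMIs over 20394 genes, and the Mcpt8 cells held 1659463 of them. They ranged from 2974 to 52648 UMIs per cell, with a median of 21801.5, against a median of 11363 in all other cells. No barcode sequence was shared by 2 Mcpt8 cells, and 1 of them had a barcode also found in another library, against 138 shared barcodes in the whole table.

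Mcpt8 (ENSMUSG00000022157) lies on the minus strand at chr14:56082166-56085273 of GRCm38 in the GENCODE M21 annotation. Its count spanned a wide range. The lowest count was 2 UMIs by the rule, the median 5.5 and the highest 445, and the 4 highest cells held 55.2% of the 2134 Mcpt8 UMIs of these cells. The Mcpt8 cells held 74.4% of the 2867 Mcpt8 UMIs of the table, and cells rich in Elane, Mpo and Prtn3 held 18.3%. Just inside the threshold, 18 cells had 2 Mcpt8 UMIs, 7 had 3 and 11 had 4. Just outside it, 94 cells met the other conditions with 1 Mcpt8 UMI, and 8 of those had at least 2 of the basophil and mast cell genes Cd200r3, Fcer1a, Ms4a2, Cpa3 and Prss34, against 5 of the 18 cells with 2 UMIs. At the protease limit, the highest Mcpt8 cell stood at 0.469% and the lowest cell left out at 0.511%. In all, 159 cells had at least 2 Mcpt8 UMIs, of which 79 were left out for the precursor proteases, at a median of 2.38% of their UMIs, and 2 more for mast cell proteases alone. As a background, 0.0819% of 6104 B cell-like cells (at least 3 UMIs of Cd79a and Cd79b) had an Mcpt8 UMI at a median depth of 6066.5 UMIs, and 0.105% of 11450 neutrophil-like cells (at least 0.5% of UMIs in 6 neutrophil granule and surface genes) had one at a median of 10363. Whether these UMIs came from free RNA was not tested.

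The 78 cells fell into ranges by the count of Elane, Mpo and Prtn3. No cell had exactly 2 UMIs of these proteases: 34 cells had none, 3 had 1 and 41 had between 3 and 180. The correction for free RNA had lowered Elane to 0 in 10 of the 78 cells, Prtn3 in 2 and Mpo in 1, so some of these zeros are corrected values. The second range was divided by whether at least 2 of Cd200r3, Fcer1a, Ms4a2, Cpa3 and Prss34 were present. Both splits were made after the values were seen and serve as description. They gave 37 cells with at most 1 protease UMI, called here Cd200r3/Il6 cells, 16 cells with proteases and basophil genes, called Cpa3/Ms4a2 cells, and 25 cells with proteases and at most 1 of the 5 genes, called Cd34/Meis1 cells. Their median depths were 7807, 23777 and 28842 UMIs, with a median of 2053, 4759 and 5237 genes.

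**Figure D1:**
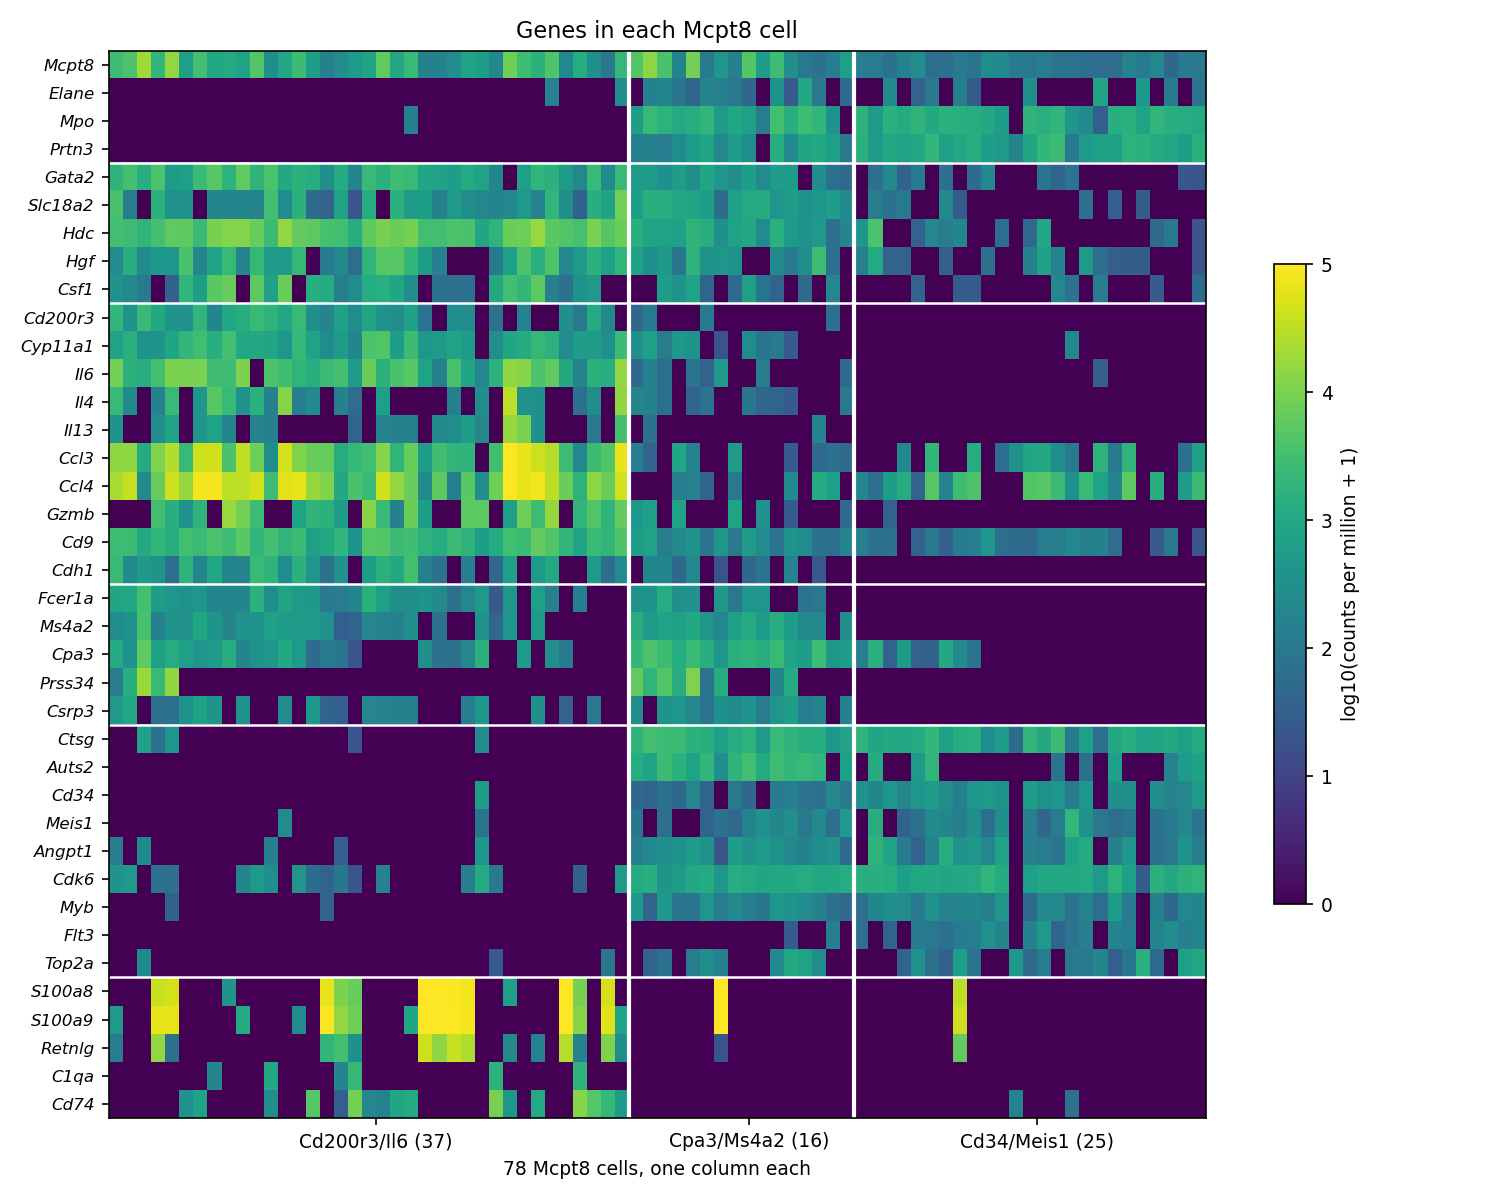
Each column is 1 of the 78 Mcpt8 cells and each row a gene, with colour giving log10 of UMIs per 1000000 UMIs of the cell (CPM) plus 1. White lines separate the 37 Cd200r3/Il6, 16 Cpa3/Ms4a2 and 25 Cd34/Meis1 cells and the gene sets, and S100a8 and S100a9 are high in 11 of the 78 columns.

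The promoters of 4 genes that mark these ranges are shown because they carry the letters bound by GATA factors, for which they were chosen, and Gata2 was present in 63 of the 78 cells. Cd200r3 encodes an activating receptor of basophils and mast cells, Ms4a2 the beta chain of the IgE receptor, Cpa3 a carboxypeptidase of mast cell and immature basophil granules, and Prss34 a tryptase-like protease of basophils. Each sequence is the 250 bases before the start site in RefSeq on GRCm38.p6, written from 5′ to 3′ along the gene, with GATAA or its reverse complement TTATC in capitals.
Cd200r3, chr16:44943428-44943677, plus strand: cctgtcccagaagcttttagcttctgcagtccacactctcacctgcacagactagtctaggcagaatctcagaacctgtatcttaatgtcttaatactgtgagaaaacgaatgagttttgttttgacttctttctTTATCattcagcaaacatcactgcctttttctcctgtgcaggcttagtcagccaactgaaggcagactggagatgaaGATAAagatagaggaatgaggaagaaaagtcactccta
Ms4a2, chr19:11623720-11623969, minus strand: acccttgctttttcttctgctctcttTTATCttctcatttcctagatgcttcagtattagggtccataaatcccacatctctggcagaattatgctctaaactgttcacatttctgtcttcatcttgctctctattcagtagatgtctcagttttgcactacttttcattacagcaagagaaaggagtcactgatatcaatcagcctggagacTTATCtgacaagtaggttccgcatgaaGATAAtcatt
Cpa3, chr3:20242182-20242431, minus strand: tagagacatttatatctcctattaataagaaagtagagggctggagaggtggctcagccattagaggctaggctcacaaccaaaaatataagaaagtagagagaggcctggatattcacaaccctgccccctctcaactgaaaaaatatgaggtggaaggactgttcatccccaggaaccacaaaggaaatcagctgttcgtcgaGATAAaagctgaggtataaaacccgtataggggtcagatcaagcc
Prss34, chr17:25298144-25298393, plus strand: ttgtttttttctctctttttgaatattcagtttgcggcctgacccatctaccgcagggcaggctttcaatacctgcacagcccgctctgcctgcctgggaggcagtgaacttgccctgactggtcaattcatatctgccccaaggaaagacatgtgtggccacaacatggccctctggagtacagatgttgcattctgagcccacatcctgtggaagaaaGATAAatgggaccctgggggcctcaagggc

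The letters GATAA were searched on both strands and occurred in 22.6% of 32851 such windows. All 12 genes looked up, Mcpt8, Il4, Il6, Gata2, Cyp11a1, Prss34, Cd200r3, Fcer1a, Ms4a2, Cpa3, Hdc and Slc18a2, were matched, and 7 of them had a match. Ms4a2 had 3, which began 224, 37 and 10 bases before its start site. A match describes the letters of a window and is no evidence that a factor was bound there.

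The Cd200r3/Il6 cells carried several genes of mature basophils that the rule did not use, while Prss34 was seen in 5 of the 37. Mcpt8, which describes the choice, was counted at 2107 UMIs per 1000000 UMIs (CPM; 95% Poisson interval 1983 to 2237), and at 1242 CPM without library 2. Gata2 stood at 1085 CPM in 36 of 37 cells, and Hdc, which encodes the enzyme that makes histamine, at 4394 CPM in all 37. Hdc was not particular to these cells, since neutrophil-like cells held 72.0% of its UMIs in the table and all Mcpt8 cells 1.06%. Cyp11a1, which encodes the enzyme that opens steroid synthesis, stood at 743 CPM in 36 cells. Of the IgE receptor genes, Fcer1a was seen in 32 cells and Ms4a2 in 27, at 323 and 227 CPM. Cd200r3 was seen in 31 of the 37 cells, with a median of 5 UMIs. All 37 cells had a UMI of at least 1 of Il4, Il6 and Il13. Intervals here and below cover counting error only.

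Of the cytokine genes, Il1b stood at 7146 CPM in 34 of the 37 cells and Il6 at 2895 CPM (2749 to 3046). Il6 was present in 36 of 37 cells with a median of 27 and a highest count of 297 UMIs. Il4, the cytokine of type 2 immunity, stood at 921 CPM (839 to 1008) in 24 cells and Il13 at 414 CPM (360 to 474) in 21 cells. Both were uneven. The median cell had 2 UMIs of Il4 and 1 of Il13, and the highest had 145 and 74, in the same cell of library 5. Without the 3 cells of library 5 Il4 stood at 539 CPM and Il13 at 135 CPM, and without the 16 cells of library 2 at 1458 and 675 CPM. Ccl3 and Ccl4, which encode chemokines that attract monocytes and lymphocytes, were at 9568 and 16294 CPM and were seen in 36 and 37 cells. Ccl6, a further chemokine of myeloid cells, was at 3114 CPM in 34 cells. Csf1, the growth factor of macrophages, was at 766 CPM, or 1266 CPM without library 2, and Hgf, which encodes hepatocyte growth factor, at 672 CPM. Il5 was not detected in any Mcpt8 cell.

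The lipid mediator genes were uneven. Alox5, the first enzyme of leukotriene synthesis, was at 219 CPM in 27 of the 37 cells and 133 CPM in 14 of 16 Cpa3/Ms4a2 cells, against 6.95 CPM in 1 of 25 Cd34/Meis1 cells. Ptgs2, the inducible enzyme of prostaglandin synthesis, was at 813, 11.7 and 146 CPM in the same order.

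Receptor levels differed between the ranges, with some higher in each. Csf2rb2, which encodes the IL-3 receptor beta chain of mice, was at 420 CPM in the Cd200r3/Il6 cells, 49.0 in the Cpa3/Ms4a2 cells and 1.39 in the Cd34/Meis1 cells. Il18rap and Il18r1, the chains of the IL-18 receptor, were at 403 and 240 CPM in the first of these. Il3ra, the IL-3 receptor alpha chain, was at 54.7, 95.6 and 38.9 CPM in the same order, and Kit at 15.6, 103 and 83.4 CPM. Il1rl1, the IL-33 receptor, was at 151 CPM in 24 of the 37 cells. Cdh1, which encodes E-cadherin, was at 340 CPM in 31 cells. Ccr3, the eotaxin receptor, was seen in 8 of the 37 cells and in none of the other 41. Cxcr4, the receptor that holds leukocytes in bone marrow, was at 418 CPM in 36 cells and at 47.3 CPM in 10 of the 25 Cd34/Meis1 cells. Cd9, a tetraspanin of basophil and platelet surfaces, was at 1792 CPM in all 37 cells, 296 CPM in all 16 Cpa3/Ms4a2 cells and 77.9 CPM in 21 of the 25.

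Of the 37 Cd200r3/Il6 cells, 36 had at least 2 of Cd200r3, Il6 and Cyp11a1, against 0.520% of all other cells. In 31 of the 37 none of the progenitor genes Cd34, Meis1 and Angpt1 was seen, as in 90.3% of all other cells. Their absence was therefore not particular to this range. A single cell of library 1 had 23612 UMIs and no protease UMI. Of its UMIs 14 were Cd34, 10 Angpt1, 38 Cpa3, 130 Gzmb, 12 Fcer1a and 8 Ms4a2, with none of Cd200r3 or Cyp11a1. Gzmb, with a median of 16 UMIs in this range, was also seen in Cpa3/Ms4a2 cells at up to 18 UMIs.

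The Cpa3/Ms4a2 cells were chosen for basophil and mast cell genes, so the levels of Cpa3, Ms4a2 and Mcpt8 describe the choice. Cpa3 was at 1582 CPM in all 16 cells, Ms4a2 at 579 CPM in 15 cells, Gata2 at 392 CPM in 15 cells and Mcpt8 at 2268 CPM, with a median of 13.5 UMIs. Ctsg, the cathepsin G of immature granulocytes, was at 1533 CPM in all 16, and Cd34 at 74.7 CPM in 14. Auts2 was at 1570 CPM in 15 cells and at 252 CPM in 9 of the Cd34/Meis1 cells, and had no UMI in any Cd200r3/Il6 cell. Cytokine genes were uneven here. Hgf was at 576 CPM in 13 cells, with 111 of its 247 UMIs in 1 of them, and Csf1 at 145 CPM in 10, against 22.5 and 26.5 CPM in all other cells. Il4 was at 44.3 CPM in 10 cells with at most 4 UMIs each, and Il6 at 88.6 CPM in 8 cells. When each cell was thinned to 2000 UMIs, Il4 was seen in none of the 16 cells and in 40.5% of the Cd200r3/Il6 cells, and Il6 in 12.5% and 89.2%.

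Prss34 was concentrated in few cells. Its 1269 UMIs lay in 14 of the 78 cells, 9 of them Cpa3/Ms4a2 cells and 5 Cd200r3/Il6 cells. The highest 4 cells, all in library 2, held 76.1% of these UMIs. The Cd200r3/Il6 cells with Prss34 were all in library 2.

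The Cd34/Meis1 cells were chosen for having at most 1 of Cd200r3, Fcer1a, Ms4a2, Cpa3 and Prss34, so their low levels of these genes describe the choice. Their Mcpt8 counts ran from 2 to 8 with a median of 2, and Cd200r3, Fcer1a, Ms4a2, Prss34 and Il4 had no UMI in any of the 25, which allows up to 3 UMIs for each. Cpa3 was seen in 9 cells and Gata2 in 12. Cd34, a surface marker of blood progenitors, was at 299 CPM in 22 cells. Meis1 and Angpt1, genes of stem and early progenitor cells, were seen in 21 cells each, and Flt3, the receptor of lymphoid and dendritic cell progenitors, in 20. At least 2 of Cd34, Meis1 and Angpt1 were present in 21 of the 25 cells, against 2.40% of all other cells. The same held for all 16 Cpa3/Ms4a2 cells, so these genes were not particular to this range. Mpo was at 1201 CPM, within the limit of the rule. Cell cycle genes were also present, with Top2a in 18 of the 25 cells, against 9 of 16 Cpa3/Ms4a2 and 3 of 37 Cd200r3/Il6 cells.

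**Figure D2:**
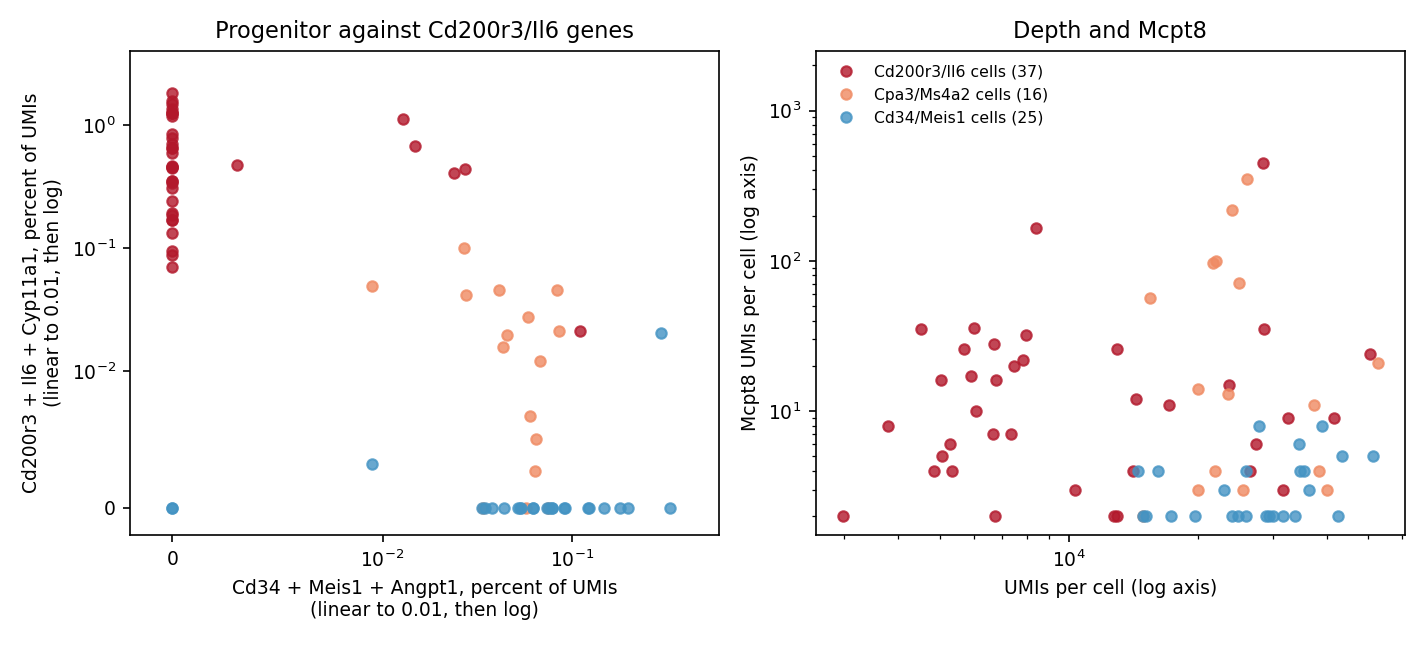
Left, the percent of UMIs of each Mcpt8 cell in Cd34, Meis1 and Angpt1 against the percent in Cd200r3, Il6 and Cyp11a1, on axes linear to 0.01 and logarithmic above. Right, Mcpt8 UMIs against all UMIs of the cell on log axes; the Cd34/Meis1 cells sit at 2 to 8 Mcpt8 UMIs, and all 21 cells under 10000 UMIs are Cd200r3/Il6 cells.

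Genes that mark other cell types were high in some of the Mcpt8 cells, and whether their RNA came from the cell itself, from free RNA or from a second cell was not tested. S100a8 and S100a9, which encode the main cytosolic proteins of neutrophils, took between 7.14% and 27.2% of the UMIs of 11 cells, with a median of 16.3%, and at most 2.56% in the other 67. Of the 11 cells, 8 were in library 2, 3 in library 6, and 9 were Cd200r3/Il6 cells. The submitters' correction for free RNA had lowered S100a8 to 0 in 57 of the 78 cells, so a count of 0 for this gene is a corrected one. In addition, 6 Cd200r3/Il6 cells had at least 10 UMIs of the macrophage genes C1qa, C1qb and Csf1r, and 6 had at least 50 UMIs of H2-Aa, H2-Ab1 and Cd74, which encode MHC class II and its invariant chain. In all, 16 of the 37 cells had one of these signs, as did 63.4% of all other cells. The 16 comprised 11 in library 2, 4 in library 3 and 1 in library 6. They had a median of 21787 UMIs, against 6029 in the 21 cells without a sign.

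Values without those cells are given next. S100a8 and S100a9 held 14626 and 19142 of the 511594 UMIs of the 37 cells and mostly leave the total with them. The cause of the higher CPM in the cells without a sign was not tested. In the 21 Cd200r3/Il6 cells without a sign, Gata2 was at 1925 CPM in 20 cells, Il6 at 4610 CPM in 20, Il4 at 2657 CPM in 15, Ccl3 at 21511 CPM in 20 and Cd200r3 at 802 CPM in 16. Prss34 was at 1130 CPM in 3, against 1206 CPM in all 37. Il1b stood at 9040 CPM in these cells, against 6409 CPM in the 16 with a sign and 1847 CPM in neutrophil-like cells. The full list of 10 neutrophil genes summed to 356 CPM in the 21 cells, led by S100a9 at 146 CPM with Ly6g and Csf3r at 0, and to 116594 CPM in the 16. The list of 8 monocyte and macrophage genes summed to 279 CPM, led by Adgre1 at 112 CPM with Csf1r and C1qb at 0, and to 7599 CPM. Over all 78 cells the neutrophil list summed by library to between 73.6 and 78131 CPM, with a median of 3167 CPM. The 8 genes of MHC class II and costimulation summed to 314 CPM in the 21 cells, so these cells lay below the limits set and were not free of such RNA. The part of these RNAs in the values over all Mcpt8 cells was not tested, apart from the values given without them.

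Markers of further leukocytes varied by list. Among 9 eosinophil genes, Ear1, Ear6, Prg2 and Epx, the granule proteins, had no UMI in the 78 cells, and the list summed to 39.2 CPM with Alox15 highest at 14.5 CPM. Of 7 T cell genes, Cd3e, Cd3g, Cd4 and Cd8a were at 0 and the list summed to 7.83 CPM, led by Trac at 5.42 CPM. Of 6 NK cell genes, 5 were at 0 and Nkg7 stood at 195 CPM, with 404 CPM in the Cpa3/Ms4a2 and 178 CPM in the Cd34/Meis1 cells. The list of 6 genes of type 2 innate lymphoid cells summed to 184 CPM, to 459 CPM in the 37 Cd200r3/Il6 cells and to 858 CPM in the 21 of them without a sign, where Il1rl1 led at 370 CPM. Over the 78 cells Il5 was at 0, Gata3 had a single UMI, and Il7r led at 69.3 CPM. The 5 fibroblast genes had no UMI.

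**Figure D3:**
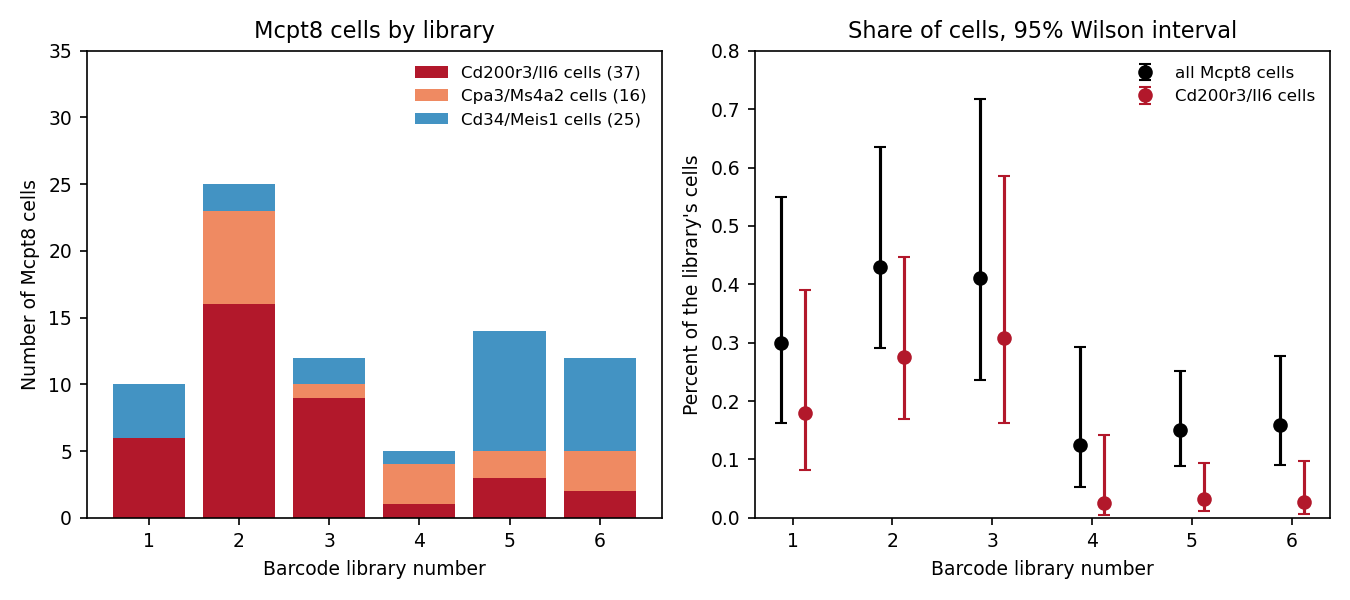
Left, the number of Mcpt8 cells in each barcode library as stacked bars by range. Right, all Mcpt8 cells (black) and Cd200r3/Il6 cells (red) as a percent of the cells of the library, with 95% Wilson intervals; the red points lie at 0.179% to 0.308% in libraries 1 to 3 and at 0.0250% to 0.0321% in libraries 4 to 6.

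Mcpt8 cells were found in all 6 libraries. Libraries 1 to 6 held 10, 25, 12, 5, 14 and 12 of them, which was 0.299%, 0.430%, 0.411%, 0.125%, 0.150% and 0.159% of their cells, and 0.237% over the table (95% Wilson interval 0.190 to 0.295). Library 2 contributed 32.1% of the Mcpt8 cells and 17.6% of all cells, and without it the share was 0.195%. The Cd200r3/Il6 cells numbered 6, 16 and 9 in libraries 1 to 3 and 1, 3 and 2 in libraries 4 to 6. Their shares were 0.179%, 0.275% and 0.308% in the first 3 libraries and 0.0250%, 0.0321% and 0.0265% in the others, and the Wilson intervals of libraries 2 (0.170 to 0.447) and 3 (0.162 to 0.585) lay above those of libraries 4 (0.00442 to 0.142), 5 (0.0109 to 0.0944) and 6 (0.00728 to 0.0967). That of library 1 (0.0822 to 0.391) overlapped all of these. The Cd34/Meis1 cells numbered 9 and 7 in libraries 5 and 6 and between 1 and 4 in each of the rest. Treatment and library cannot be told apart here, because the numbers carry no treatment label.

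Levels differed widely between libraries. Over all Mcpt8 cells, Il6 ran from 161 CPM in library 4 to 1828 CPM in library 2, with a median of 824 CPM. Il4 ran from 0 in library 4 to 820 CPM in library 5, with a median of 247 CPM. Gata2 ran from 121 to 809 CPM and Hdc from 556 to 2600 CPM. In all other cells Il6 stayed between 3.87 and 22.0 CPM and Il4 between 1.21 and 3.97 CPM, so the Mcpt8 cells lay above them in all 6 libraries for Il6 and in 5 of 6 for Il4. In library 6 the Il4 of the Mcpt8 cells was 2 UMIs in 1 cell and 1 UMI in another, so its place among the 5 rests on few counts. The mix of the 3 ranges also differed between libraries, and within the Cd200r3/Il6 cells alone Gata2 ran from 697 to 2851 CPM and Hdc from 3461 to 7728 CPM. Library 4 had a single such cell, without Il4, and library 6 had 2, without Il4.

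The Mcpt8 cells held a large part of a few cytokine transcripts of the synovial leukocytes. They were 0.237% of the cells and held 34.0% of the 1441 Il4 UMIs of the table (exact 95% interval 31.6 to 36.5) and 27.6% of the 5500 Il6 UMIs (26.5 to 28.8). They held 14.1% of the Il13 UMIs, and 7.27% without library 5. They held 8.99% of Csf2, 8.88% of Ccl3, 6.52% of Ccl4, 5.70% of Hgf and 3.54% of Csf1. For Il4, Il13, Ccl3, Ccl4 and Csf1 most of that lay in the Cd200r3/Il6 cells, which alone held 32.7% of Il4 and 26.9% of Il6. They held 0.601% of the UMIs of Osm and 0.591% of Il1b (0.354% without library 2), 0.318% of Tnf and 0.0323% of Ccl2, so these transcripts lay almost wholly in other cells.

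Few cells decided the shares of the least abundant genes. The highest single cell held 29.6% of the Il4 UMIs of the Mcpt8 cells and the highest 4 held 73.5%, and without the highest cell the share of Il4 was 26.6%. By library the share of Il13 was 4.29%, 19.8%, 4.37%, 3.74%, 28.0% and 2.42%, with a median of 4.33%. For Csf2 all 73 UMIs came from 2 cells of library 5, 63 of them from 1. For Il6 the highest cell held 19.5% and the highest 4 held 36.1%. By library, the share of Il6 UMIs was 10.9%, 66.0%, 26.7%, 9.02%, 15.8% and 12.6% in libraries 1 to 6, and that of Il4 was 32.3%, 43.4%, 50.4%, 0, 52.4% and 1.41%. Without library 2 the Mcpt8 cells held 15.4% of Il6, and without the 11 cells with S100a8 and S100a9 at 5% or more they held 17.2% of Il6 and 29.0% of Il4.

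**Figure D4:**
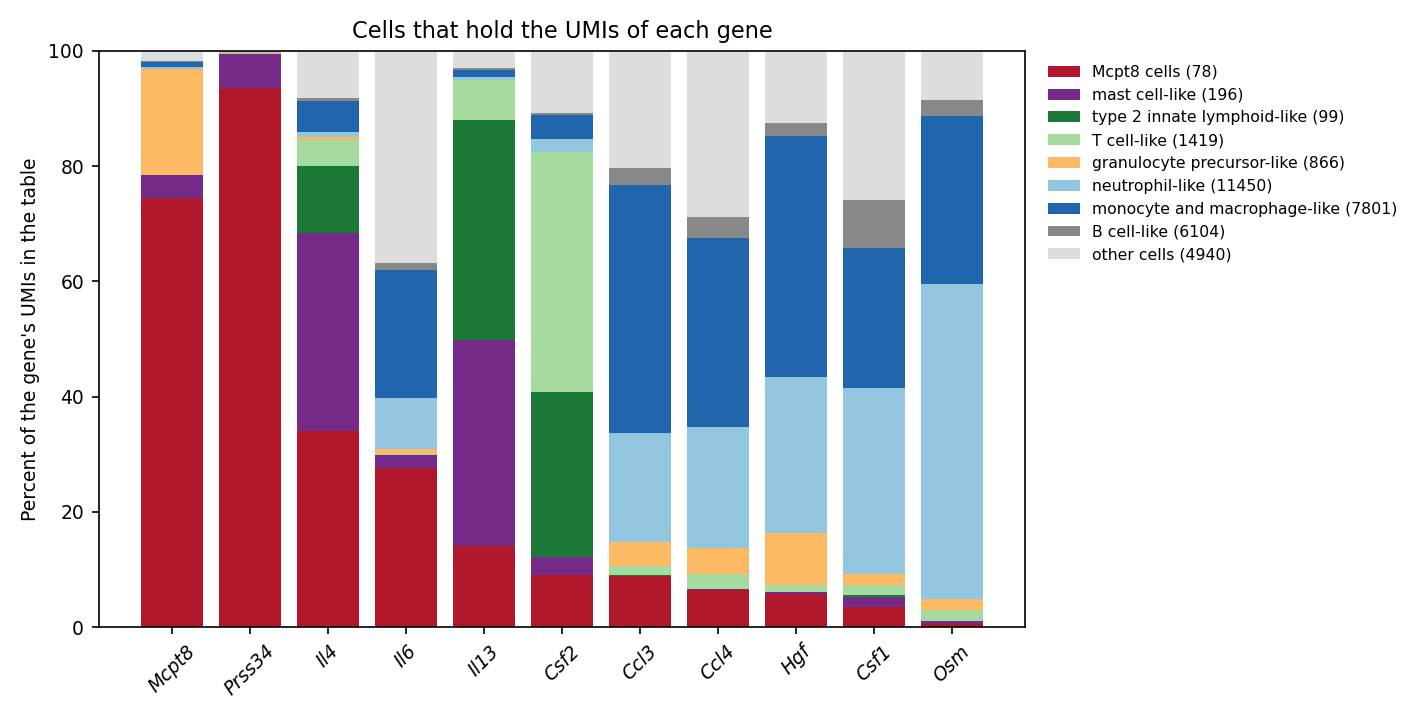
Stacked bars give the percent of the UMIs of each gene in the whole table that lay in the 78 Mcpt8 cells and in each class of other cells, with the number of cells in brackets. The Mcpt8 cells held 93.6% of Prss34, 34.0% of Il4, 27.6% of Il6 and 14.1% of Il13, the last falling to 7.27% without library 5.

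The remaining Il4 lay mostly in mast cell-like cells (Mcpt4 and Tpsb2 together at least 2 UMIs), which held 34.4%, and in type 2 innate lymphoid-like cells (Gata3, Il1rl1 and Il7r present without Cd3 genes), which held 11.7%. The remaining Il13 had the same 2 sources, at 35.7% and 38.2%. Il6 was different, since 22.2% lay in monocyte and macrophage-like cells (at least 2 Csf1r UMIs) and 36.8% in cells of no class, and 2.22% in mast cell-like cells. Per UMI, Il4 was at 921 CPM in the Cd200r3/Il6 cells, or 539 CPM without library 5, 413 CPM (378 to 451) in 196 mast cell-like cells and 173 CPM (148 to 201) in 99 type 2 innate lymphoid-like cells. At 2000 UMIs per cell Il4 was seen in 40.5%, 45.1% and 17.5% of these cells. The share was 52.4% in the 21 Cd200r3/Il6 cells without a sign of other cell types. The mast cell-like class was not filtered for such signs, so this share is not set against its 45.1%. At 2000 UMIs 34 of the 196 mast cell-like and 2 of the 99 innate lymphoid-like cells were left out.

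Against all other cells pooled, 108 of 8240 genes compared (1.31%) were at least 4-fold higher in the Mcpt8 cells and 148 (1.8%) at least 4-fold lower, with 5 CPM added to both levels and a mean of at least 10 CPM. The rule used this contrast, so nothing is read from these counts. Their order turned with the settings: with 20 CPM added 54 genes were higher and 36 lower, and among genes with a mean of at least 50 CPM 63 were higher and 48 lower. Of the 15 basophil identity genes, 14 passed the level limit and 11 were higher, with a median log2 fold of 4.93 against 0.05 over all genes compared. Hdc, Cd9 and Il3ra were compared and were not 4-fold higher. Mcpt8 was high by the rule, and the list was chosen with earlier results of these data known, so this count is a description only. The 25 genes of largest fold among those seen in at least 25% of the cells were led by Mcpt8, at 1286 against 1.51 CPM, Il6, at 916 against 8.21 CPM, Il4, at 295 against 1.96 CPM, and Gata2, at 451 against 5.73 CPM. Cyp11a1, Slc18a2 (the vesicular transporter that loads histamine), Ms4a2, Gzmb, Fcer1a, Ccl3, Cd200r3, Car8, Cpa3, Ccl4, Csrp3, Slc24a3, Il13, Auts2, Slc22a3, 4930519L02Rik, Gm20186, Cdh1, Hgf, Rab38 and Scin followed, at log2 folds from 5.10 down to 3.65.

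Over all genes compared 1.31% were at least 4-fold higher than in all other cells and 1.8% lower. By list, 8 of 23 compared genes for secreted cytokines and chemokines were at least 4-fold higher than in all other cells and 4 were lower. The 8 were Il4, Il6, Il13, Csf1, Csf2, Hgf, Ccl3 and Ccl4. The 4 were the monocyte chemokines Ccl2, at 25.9 against 274 CPM, and Ccl7, with 1 UMI in the 78 cells, and Ccl24 and Xcl1, which had none. Of 27 compared receptors Fcer1a, Ms4a2, Cd200r3, Csf2rb2 and Il1rl1 were higher and Il2ra, with no UMI, was lower. Of 12 compared genes of histamine, eicosanoid and steroid synthesis and storage, Slc18a2 and Cyp11a1 were higher. Of 11 progenitor genes Cd34, Meis1, Angpt1, Mecom and Cdk6 were higher, with a median log2 fold of 1.91. Among 18 compared transcription factors Gata2 and Ikzf2 were higher, at 451 and 312 CPM, with Ikzf2 at 942 CPM in the Cpa3/Ms4a2 cells, and Cebpe was lower. None of the 20 adhesion genes, 10 cell cycle genes or 12 immediate-early genes was 4-fold apart in either direction. Of the adiponectin and PEPITEM genes, Adipor1 was at 107 CPM in 56 of the 78 cells, Adipor2 at 145 CPM in 65 and Appl1 at 56.6 CPM in 46. None of the 5 compared genes was 4-fold apart, and this list is also too short for that to be read. Spns2, which encodes a transporter that exports sphingosine-1-phosphate, was at 57.0 CPM in 19 of the 25 Cd34/Meis1 cells and at 3.91 CPM in 2 of the 37 Cd200r3/Il6 cells.

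In the remaining lists, the kinases of IgE receptor signalling Lyn and Syk were less than 4-fold apart from all other cells, with Lyn at 515 against 1044 CPM and Syk at 180 against 372 CPM. Over all genes compared 1.31% were higher and 1.8% lower. Of 12 granule proteases 5 were higher, Mcpt8, Prss34, Cpa3, Gzmb and Ctsg, and 3 were lower, Mcpt4, Gzma and Elane, of which the rule set the direction of Mcpt8, Mcpt4 and Elane. All 5 compared B cell genes were lower, with Igkc at 22.3 against 1192 CPM, as were 4 of 4 erythroid genes, 3 of 4 dendritic cell genes and both fibroblast genes. Of 2 megakaryocyte genes Itga2b, an integrin chain that immature mast cells and basophils also carry, was higher at 75.3 against 2.59 CPM, and Pf4 was lower at 15.7 against 345 CPM. In the neutrophil list 1 of 10 genes, Camp, was lower. None of 8 was lower in the monocyte and macrophage list and none of 7 in the MHC class II list. Most UMIs of each of these lists lay in the Cd200r3/Il6 cells with a sign of other cell types, so nothing is read from these counts. Without the cells with S100a8 and S100a9 at 5% or more, 268 of all genes were lower, against 148 with them. In the mast cell list 1 of 5, Mcpt4, was lower, which the rule set to 0.

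Mast cell-like cells share granule and receptor genes with basophils. Against them 246 of 8165 genes compared (3.01%) were at least 4-fold higher in the Mcpt8 cells and 421 (5.16%) lower. With 1 CPM added 417 were higher, with 20 CPM added 80 were higher and 236 lower, and at a mean of at least 50 CPM 111 were higher and 256 lower. The mast cell list had 10 of 11 genes lower, of which Mcpt4 and Tpsb2 were 0 by the rule. The others included Cma1, the chymase, at 10.8 against 9893 CPM, and Tpsab1 and Mrgprb1, at 0 against 1465 and 1478 CPM. Kit was at 67.5 against 1334 CPM. Ccl7 was at 0.603 CPM against 5924 CPM, and Lsamp, Gnai1, Sgcd and Cobl at 0 against 1107, 849, 818 and 744 CPM. A count of 0 in the Mcpt8 cells allows up to 1.81 CPM.

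In the other direction, Ccl3 was at 3174 against 36.7 CPM in mast cell-like cells, Ccl4 at 5807 against 146 CPM and Ccl9, a further CCR1 chemokine, at 641 against 30.9 CPM. Mpo, Aff3, Adgrg1, 4930519L02Rik and Prkg1 were also among the 10 highest, as was Csrp3, which was at 101 CPM with no UMI in mast cell-like cells. Of these, Mpo, Aff3 and Adgrg1 lay mainly in the cells with proteases. Several genes were present in both classes. Fcer1a was at 323 CPM in the Cd200r3/Il6 cells and 331 CPM in mast cell-like cells, Cd200r3 at 471 and 362 CPM, Hdc at 4394 and 4542 CPM, Cyp11a1 at 743 and 984 CPM, and Ms4a2 at 227 (187 to 272) and 418 (382 to 457) CPM. In the 21 cells without a sign of other cell types Fcer1a was at 711, Cd200r3 at 802, Hdc at 6515, Cyp11a1 at 1458 and Ms4a2 at 509 CPM. The mast cell-like class was not filtered for such signs, so these levels are not set against it. Cpa3 was at 397 against 6691 CPM, Il1rl1 at 151 against 1391 CPM, Gzmb at 2052 against 251 CPM and Hgf at 672 against 34.2 CPM. The immediate-early genes were lower in the Mcpt8 cells for 6 of 12, against 5.16% of all genes compared, with Fos at 513 against 5140 CPM and Egr1 at 225 against 4055 CPM.

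**Figure D5:**
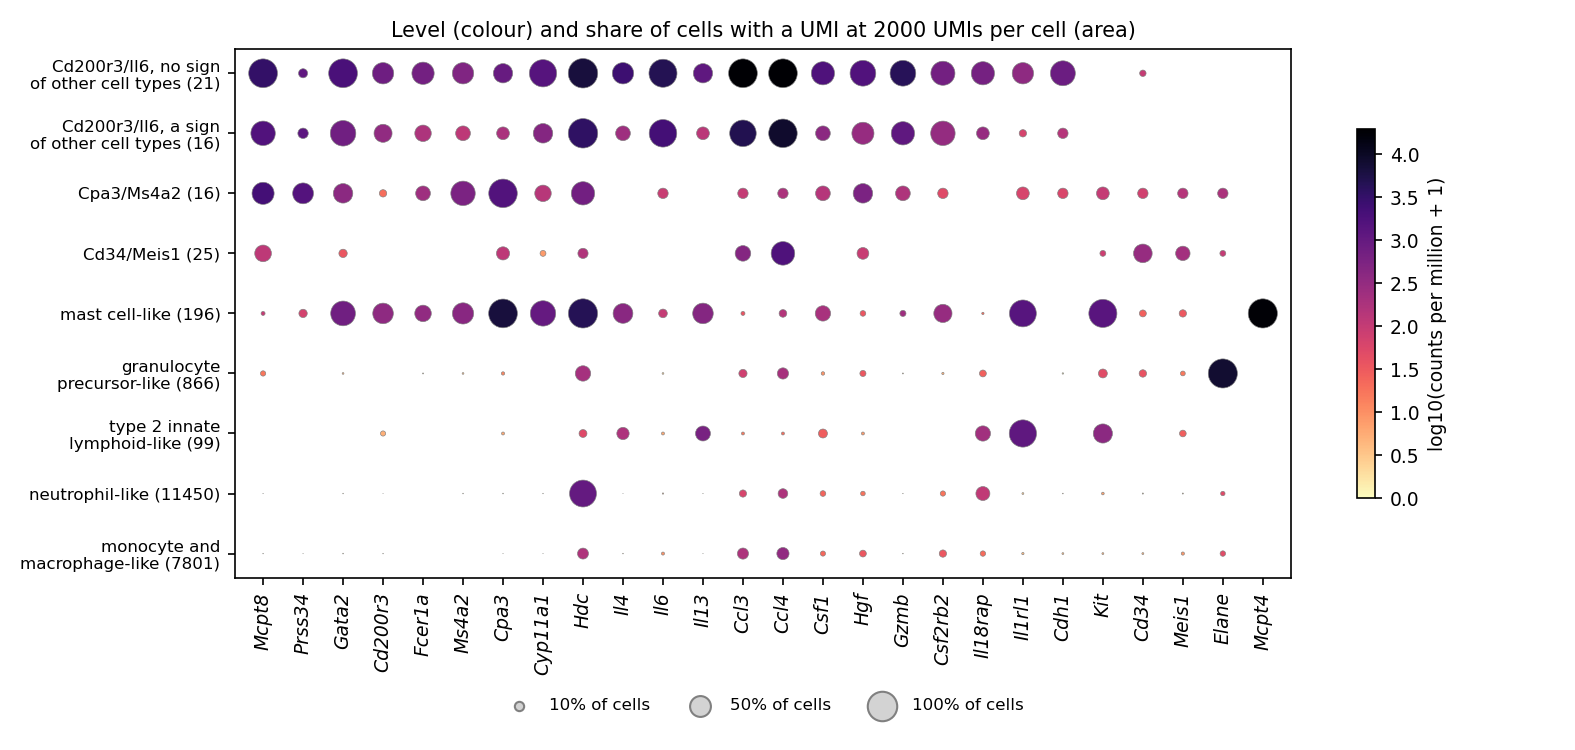
Dot area gives the percent of cells with a UMI after thinning to 2000 UMIs per cell, and colour log10 of CPM plus 1 in unthinned pooled cells, for ranges of the Mcpt8 cells and 5 other classes (cell numbers in brackets). Il6 was seen in 90.5% of the 21 Cd200r3/Il6 cells below the limits for S100a8 and S100a9, macrophage and MHC class II genes. It was seen in 87.5% of the 16 above a limit and in 8.64% of mast cell-like cells, which were not filtered by these limits.

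Granulocyte precursor-like cells (Elane, Mpo and Prtn3 at 0.5% of UMIs or more) numbered 866, and 79 of them had at least 2 Mcpt8 UMIs. Against this class 260 of 8141 genes compared (3.19%) were at least 4-fold higher in the Mcpt8 cells and 60 (0.737%) lower. Among the Cd200r3/Il6 cells alone 594 were higher and 559 lower, and without the cells with S100a8 and S100a9 at 5% or more 110 were lower. The 10 highest were Il6, Gzmb, Mcpt8, Il4, Cyp11a1, Gata2, Rgs1, Slc18a2, Ccl3 and Cpa3, from Il6 at 916 against 1.38 CPM to Cpa3 at 582 against 11.1 CPM. Of the 14 basophil identity genes compared 13 were higher, Mcpt8 by the rule, as were 14 of 18 cytokine and chemokine genes and 10 of 26 receptors. Markers of other cell types were also higher, with 4 of 6 MHC class II and costimulation genes. Of 8 monocyte and macrophage genes 2 were higher and 1 was lower. The 10 lowest were Elane, Fcnb, Cebpe, Vcam1, Ms4a3, B4galt6, Prtn3, Aff2, Dmkn and Ptgs1, of which Elane and Prtn3 were limited by the rule, as Mcpt8 was among the highest. Cebpe, which encodes the factor that drives neutrophil granule genes, was at 10.2 against 215 CPM, and Fcnb at 48.8 against 881 CPM.

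The 79 precursors with at least 2 Mcpt8 UMIs were set beside the Cd34/Meis1 cells, and the same Mcpt8 threshold chose both. Mcpt8 was at 115 CPM in the first and 117 CPM in the second, Gata2 at 22.0 and 34.8 CPM, Cpa3 at 82.7 and 118 CPM, and Hdc at 246 and 160 CPM. Cd34 was at 83.0 against 299 CPM and Meis1 at 37.4 against 216 CPM. Fcer1a and Ms4a2 were at 6.61 and 10.4 CPM in the 79 cells.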

How the data were processed

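Single-cell 3′ RNA (Chromium version 3.1) was measured in 6 samples. Per the study's methods, the authors aligned reads to mm10 with Cell Ranger 7.0.0, corrected free RNA with SoupX 1.6.2, removed doublets with DoubletFinder 2.0.3 and, in Seurat 4.3.0, kept cells with 200 to 7000 genes and at most 10% mitochondrial reads. They deposited whole-number UMI counts of 20394 genes in 32953 cells, with 1724738 entries lowered to 0 by the correction. The correction lowers counts of abundant genes, and no further doublet removal was done here.

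Cells were taken by the stated rule with all libraries pooled, and other cells were put in classes by marker counts. Counts were summed per class and given per 1000000 UMIs (CPM), with exact Poisson, exact binomial or Wilson 95% intervals, which cover counting error only. Folds used 5 CPM added and a mean of at least 10 CPM, a 4-fold limit and detection in 25% of cells. Detection was compared after thinning cells to 2000 UMIs. Python 3.11.15, numpy 2.4.6 and scipy 1.17.1 were used. Because library numbers carry no sample label, no groups were compared and no p-value was computed. The genes named were 25 lists, the 25 of largest fold over all other cells, and the 10 highest and 10 lowest against mast cell-like and precursor-like cells; a few of them are not reported here. The members, lists and rules were chosen with earlier results of these data known, and the 3 ranges and the signs of other cell types after the values were seen. Alternatives changed the Mcpt8 and protease limits, the CPM added, the lowest mean CPM, the libraries and the pooling, and the mast cell protease limit for the share of cells, but not the 4-fold, detection or thinning limits. Promoters came from RefSeq on GRCm38.p6, matched by symbol.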

Additional observations from a re-analysis of the deposited data

How the results depend on the processing

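No paired analysis was possible because the barcode library numbers carry no sample label and no groups were compared. Depth limits the values: the 78 Mcpt8 cells hold 1659463 UMIs, 0 UMIs allow up to 1.81 CPM, and 4 cells hold most of their Il4. The free RNA correction and doublets could change which cells pass the rule, and this was not tested. As reported, the Mcpt8 cells were 0.237% of cells, held 34.0% of Il4 and 27.6% of Il6 UMIs with Il4 at 295 CPM, and had 108 genes higher and 148 lower than all other cells, 246 and 421 than mast cell-like cells, and 260 and 60 than precursor-like cells.

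With at least 1 Mcpt8 UMI the share was 0.522%, Il4 36.7% and 141 CPM, Il6 30.9%, with 70 genes higher than all other cells and 37 lower than precursor-like cells. With at least 3 the share was 0.182%, Il6 26.4% and Il4 385 CPM, and with at least 5 it was 0.127%, 21.5% and 567 CPM. With proteases below 0.25% the share was 0.182% and Il4 438 CPM, with 124 genes higher and 109 lower than all other cells, and below 1% Il4 was 223 CPM. With at least 2 of the 5 further genes required the share was 0.152%, Il4 29.9% and 482 CPM, and Il6 25.5%. As a mean of single cells Il4 was 1001 CPM, and as a median over libraries 247 CPM. Thinned cells held 36.7% of Il4 and 35.3% of Il6. With 1 CPM added, 238 genes were lower than all other cells and 417 higher than mast cell-like cells. With 20 CPM added the 6 counts in the order above were 54, 36, 80, 236, 129 and 26, and with a mean of at least 50 CPM they were 63, 48, 111, 256, 158 and 35.

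A pair of alternatives was chosen after seeing the data. With at most 1 protease UMI the share was 0.112% and Il4 921 CPM, with 171 genes higher and 166 lower than all other cells and 594 higher and 559 lower than precursor-like cells. Without the cells with S100a8 and S100a9 at 5% or more, Il4 was 29.0% and Il6 17.2%, with 268 genes lower than all other cells and 110 lower than precursor-like cells. Leaving out 1 library at a time gave shares of 0.195% to 0.271%, Il4 at 27.2% to 39.7% and 203 to 378 CPM, and Il6 at 15.4% to 33.2%, the lowest without library 2. The counts ran from 100 to 123 and 122 to 241 against all other cells, 220 to 348 and 402 to 465 against mast cell-like cells, and 219 to 316 and 54 to 85 against precursor-like cells; without library 2 or 3 the number lower than all other cells was 241 or 237. The cause of these changes was not tested.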
